A study of Mus musculus with 16 samples.

Results

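The 2 metallothionein genes of mouse liver, Mt1 and Mt2, were examined with 4 genes of zinc and manganese handling: the importer Slc39a14, the exporters Slc30a1 and Slc30a10, and Mtf1, which encodes the zinc-sensing transcription factor of this system. The 6 genes were chosen by name among the 15544 genes of the liver table, after Mt2 had been seen higher in every chow-fed mutant than in the controls. Values of these genes in the chow libraries are therefore given as a description, without a test, as are the diet comparisons that contain those libraries. The means of mutants and controls compared on a high-fat diet (HFD) came from 8 other libraries, and this comparison was tested. Its limma standard errors and p-values also draw on the chow libraries, through a spread shared by all 16 libraries. The exact permutation test used the 8 HFD libraries alone.

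Bulk RNA sequencing was done on liver of 27-week-old female mice, 1 library each, in 4 groups of 4. Controls carried the floxed Esr1 alleles (Esr1fl/fl) and no Cre. Mutants (Esr1Nkx2-1Cre) carried the same alleles with a Cre driven by Nkx2-1, which removes oestrogen receptor alpha from part of the hypothalamus. Mice of both genotypes ate chow or HFD, the latter for 17 weeks, and came from a mixed CD-1;129P2 stock. The deletion is not a hepatic one, so the liver level of Esr1 would not check the genotype labels. The groups are called Control_Chow, Mutant_Chow, Control_HFD and Mutant_HFD, and replicate numbers are names only.

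Metallothioneins are small cysteine-rich proteins that bind zinc and copper in the cytosol. In hepatocytes their genes respond to metals through MTF1, which binds metal response elements in DNA, and also to glucocorticoids and to inflammatory cytokines such as interleukin-6. SLC39 (ZIP) transporters carry zinc into the cytosol and SLC30 (ZnT) transporters carry it out. SLC39A14 takes up zinc, manganese and iron and is raised in liver during inflammation, SLC30A1 is the zinc exporter of the plasma membrane, and SLC30A10 exports manganese.

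The coding sequences of Mt1 and Mt2 are shown because both genes were high in the same libraries and the measurement has to tell them apart. They were read from the GENCODE annotation of GRCm38, without the stop codon, and the capitals mark the cysteine codons.
Mt1: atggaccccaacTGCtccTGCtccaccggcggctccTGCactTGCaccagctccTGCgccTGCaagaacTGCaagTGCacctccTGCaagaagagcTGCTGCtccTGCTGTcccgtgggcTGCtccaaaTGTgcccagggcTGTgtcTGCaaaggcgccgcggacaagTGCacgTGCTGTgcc
Mt2: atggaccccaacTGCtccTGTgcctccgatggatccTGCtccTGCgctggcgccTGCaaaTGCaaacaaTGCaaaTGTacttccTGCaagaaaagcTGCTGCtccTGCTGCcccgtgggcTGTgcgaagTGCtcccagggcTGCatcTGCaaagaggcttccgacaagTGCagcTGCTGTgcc
Each holds 61 codons over 3 exons, of which 20 (32.8%) encode cysteine, and all 20 cysteine codons stand at the same positions in both genes. The 2 sequences were identical at 145 of 183 bases (79.2%), and their longest identical run was 20 bases. The transcripts of Mt1 and Mt2 shared no run of 31 bases on either strand, so reads of that length or longer without errors could be assigned to one or the other. Mt1 lies at chr8:94179082-94180327 and Mt2 at chr8:94172664-94173568 (GRCm38, plus strand both), 5513 bases apart. Mt2 overlaps the antisense gene Gm45774, which was not analysed here. Of the 573 runs of 31 bases in Mt2 transcripts, 330 (57.6%) lie on the opposite strand of Gm45774, and because the library kit does not mark strand, reads of those stretches cannot be told apart. A further 3 runs are shared with Pip5k1a. Mt1 shares no run with another gene on either strand. The other members lie at chr14:70303469-70351425 (Slc39a14, minus strand), chr1:191906767-191913247 (Slc30a1), chr1:185454848-185468762 (Slc30a10) and chr4:124802104-124849800 (Mtf1), the last 3 on the plus strand and each overlapped by a gene on the opposite strand.

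The promoters of Mt1, Mt2 and the exporter Slc30a1 are shown because MTF1 is known to act on all of them. The sequences are the 250 bases before the RefSeq start in GRCm38.p6, on the plus strand, and the capitals mark matches to the core of the metal response element, TGCACNC or TGCGCNC, on either strand.
Mt1, chr8:94178839-94179088: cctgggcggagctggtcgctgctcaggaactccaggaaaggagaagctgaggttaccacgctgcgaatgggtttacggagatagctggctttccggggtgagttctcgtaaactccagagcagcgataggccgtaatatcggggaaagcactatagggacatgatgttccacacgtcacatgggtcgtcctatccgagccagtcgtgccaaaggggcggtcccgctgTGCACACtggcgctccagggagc
Mt2, chr8:94172368-94172617: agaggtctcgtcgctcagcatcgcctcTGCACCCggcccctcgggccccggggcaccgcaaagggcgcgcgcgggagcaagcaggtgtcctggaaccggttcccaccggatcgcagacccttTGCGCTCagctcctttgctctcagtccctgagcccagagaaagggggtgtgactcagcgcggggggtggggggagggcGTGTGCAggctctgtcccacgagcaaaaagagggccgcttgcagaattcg
Slc30a1, chr1:191906531-191906780: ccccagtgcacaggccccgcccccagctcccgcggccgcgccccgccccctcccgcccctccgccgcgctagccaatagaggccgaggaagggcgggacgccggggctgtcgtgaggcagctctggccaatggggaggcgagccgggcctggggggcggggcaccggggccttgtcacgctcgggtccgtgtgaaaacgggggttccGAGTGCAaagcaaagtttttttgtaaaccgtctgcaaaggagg
Mt2 held 3 matches in this window and Mt1 and Slc30a1 held 1 each. Slc30a10 also held 3, of which a pair on opposite strands overlapped, and Mtf1 held none, while Slc39a14 was not among the promoters used. Of 32851 RefSeq promoter windows of this length, 21.4% held at least 1 match and 1.26% held 3 or more. In the first 180 transcribed bases of the GENCODE transcript, Mt1 had 4 further matches and Mt2 had 3, counts reached by 0.0801% and 0.603% of 21218 coding transcripts. Slc30a1 had 1 there, a count reached by 19.3% of transcripts, and the other 3 genes had none. These counts depend on the annotated start. The Mt1 window ends at 94179088, and the Mt1 coding sequence starts at 94179311. The Mt2 window ends at 94172617, before the GENCODE start at 94172664, so the bases between were searched in neither count. Matches in the window alone therefore do not give the number of elements near a gene. A STAT core (TTCNNNGAA, either strand) was found in none of the 5 windows and in 7.02% of all windows. An antioxidant response core (TGACNNNGC) was found once in Mt2 and once in Slc30a1, against 10.2% of all windows with at least 1.

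Values are normalised TPM (transcript abundance corrected for transcript length), adjusted between libraries by the authors and summing to between 905897 and 1119703 per library. A library had 11834 to 12443 genes at 1 or above. The read depth of the libraries is unknown from these values. Differences are on the scale of log2(value + 1), mutant minus control or HFD minus chow, with a standard error from a limma fit to all 16 libraries, and 12704 genes were tested. All 6 members passed the filter on low values, a value of at least 1 in at least 4 libraries, in every one of the 4 groups. The defining markers of hepatocytes were present in every library, with 8 of 8 genes above 0.

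Mt1 in Control_Chow replicates 1 to 4 was 125, 245, 158 and 311 normalised TPM. In Mutant_Chow it was 1140, 8912, 456 and 549. In Control_HFD it was 144, 197, 214 and 166, and in Mutant_HFD 170, 210, 870 and 1013. The lowest chow mutant lay above the highest chow control, whereas on HFD replicates 1 and 2 of the mutants lay within the range of the controls and replicates 3 and 4 far above it.

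Mt2 in Control_Chow was 19.5, 31.7, 23.7 and 56.9 normalised TPM. Mutant_Chow libraries had 734, 5541, 174 and 207. Control_HFD libraries had 43.1, 40.0, 36.5 and 32.5, and in Mutant_HFD 35.8, 32.9, 276 and 338.1. The same 2 HFD mutants, replicates 3 and 4, were high for both genes, and the 8 controls stayed at or below 56.9 on either diet. Mutant_Chow replicate 2 was the highest library for Mt1 and Mt2 alike. There Mt1 ranked 17 and Mt2 ranked 28 among all genes by level, whereas in the chow controls Mt1 ranked between 384 and 915 and Mt2 between 1702 and 4128. The order of the group means on the log2 scale was Mutant_Chow (9.28), Mutant_HFD (6.70), Control_HFD (5.28) and Control_Chow (4.97) for Mt2, and every neighbouring pair in this order overlapped.

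**Figure D1:**
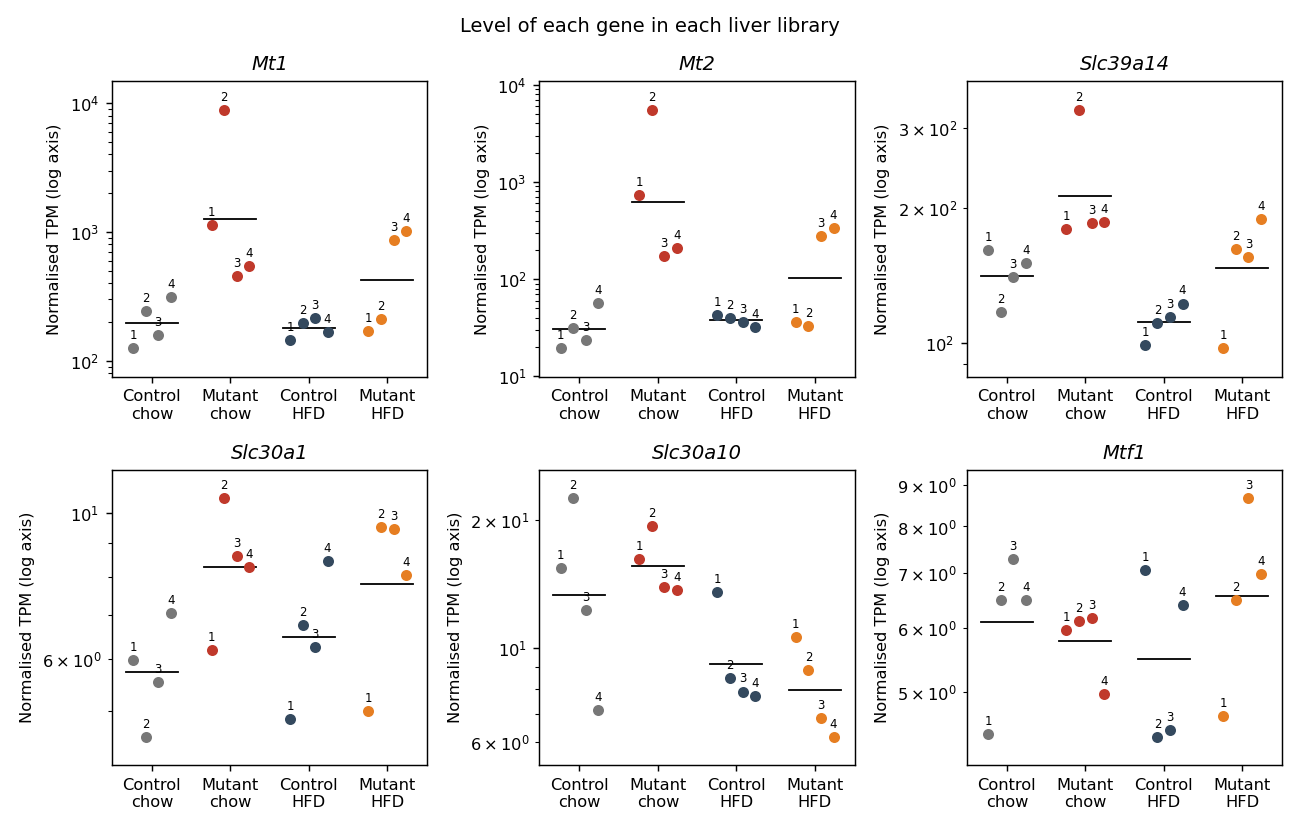
Level of each gene in each library, in normalised TPM on a log axis whose range differs between panels. Points are libraries with their replicate number, and lines are group means of log2(value + 1) returned to the linear scale. All 4 chow mutants exceed the chow controls for Mt1 and Mt2, and on HFD replicates 3 and 4 of the mutants do.

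On HFD, the metallothioneins were higher on average in mutants, but neither gene passed limma or the exact permutation test at 0.05. Mutant_HFD replicates 1 and 2 lay within the range of the controls for both genes. Mt2 averaged 171 ± 160 normalised TPM in mutants and 38.0 ± 4.59 in controls (SD, n = 4 each). The fitted difference was 1.42 with a standard error of 0.94, a 2.68-fold change (limma adjusted p = 0.636; exact permutation p = 0.371, two-sided). Mt1 averaged 566 ± 438 in mutants and 180 ± 31.3 in controls. Its difference was 1.24 with a standard error of 0.77, or 2.36-fold (limma adjusted p = 0.625; exact permutation p = 0.171, two-sided). The smallest p that an exact test of 4 against 4 libraries can give is 0.0286. In a fit of the HFD groups alone, the standard error was 0.73 for Mt2 and 0.56 for Mt1 (limma adjusted p = 0.705 for both). Without Mutant_HFD replicate 4 the differences were 0.82 for Mt1 and 0.85 for Mt2. Without Mutant_HFD replicate 2 the difference of Mt2 was 1.96.

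None of the 6 members passed an adjusted p of 0.05 in the HFD genotype comparison by limma, where 0.0157% of all genes did, and 0 of 6 passed at an unadjusted p of 0.05, against 8.6% of all genes. With library weights, 3 of the 6 passed (Slc39a14, Slc30a1 and Mtf1), but so did 3926 of the 12704 genes tested (30.9%) in that fit. No member had all 4 HFD mutants above all 4 HFD controls, which 1.39% of all genes did.

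On chow, where the members were chosen, Mt2 averaged 1664 ± 2598 in mutants and 32.96 ± 16.7 in controls (SD, n = 4 each). The fitted difference was 4.31 with a standard error of 0.94, or 19.8-fold, and it was 3.26 without Mutant_Chow replicate 2. Mt1 averaged 2764 ± 4110 in mutants and 210 ± 84.3 in controls, a difference of 2.67 with a standard error of 0.77, or 6.38-fold. Without Mutant_Chow replicate 2 the difference of Mt1 was 1.74. Of the 6 members, Mt1, Mt2 and Slc39a14 had all 4 chow mutants above all 4 controls, which 1.95% of all genes did. Over all genes, 0.0236% passed an adjusted p of 0.05 in this comparison and 6.08% passed an unadjusted p of 0.05.

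By their title numbers, the libraries form 4 runs of numbers (title series), 2 for each diet, whose meaning the labels leave unstated. In one HFD series, Mutant_HFD replicate 1 had an Mt2 level of 35.8 beside 36.5 to 43.1 in Control_HFD replicates 1 to 3. In the other HFD series, Mutant_HFD replicates 2 to 4 had 32.9, 276 and 338.1 beside 32.5 in Control_HFD replicate 4. In one chow series, Mutant_Chow replicate 1 had 734 beside 19.5 and 31.7 in Control_Chow replicates 1 and 2. In the other, Mutant_Chow replicates 2 to 4 had 174 to 5541 beside 23.7 and 56.9 in Control_Chow replicates 3 and 4. Chow mutants thus exceeded the controls in both series, and on HFD the 2 mutants far above the controls were of 1 series. With the series as a term, the HFD genotype difference of Mt2 was 0.99 with a standard error of 1.15 and that of Mt1 was 0.83 with a standard error of 0.94.

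Mt1 and Mt2 moved together but not in proportion. Over the 16 libraries, their log2 values had a Pearson correlation of 0.982 and a Spearman correlation of 0.859, and after subtraction of group means these were 0.980 and 0.909. The Pearson correlation was 0.967 without Mutant_Chow replicate 2. Both values of a library share its scaling and its RNA. The level of Mt1 divided by that of Mt2 was between 5.47 and 7.71 in Control_Chow and between 3.34 and 5.87 in Control_HFD. In Mutant_Chow it was 1.55, 1.61, 2.63 and 2.65. In Mutant_HFD it was 4.73 and 6.39 in the replicates with low metallothionein and 3.15 and 3.0 in those with high. The ratio was 3.15 or less in the 6 mutant libraries whose Mt1 and Mt2 sum was 630 or more, and the lowest value among the other 10 libraries was 3.34. The cut at 630 was drawn from these same values. The ratio may also depend on how reads of the stretches that Mt2 shares with Gm45774 were assigned, which Mt1 does not have. Together the 2 genes held between 0.0152% and 0.0405% of the summed TPM in Control_Chow and between 0.0180% and 0.0224% in Control_HFD. In Mutant_Chow replicates 1 to 4 the share was 0.207%, 1.36%, 0.0639% and 0.0753%, and in Mutant_HFD it was 0.0196%, 0.0252%, 0.113% and 0.141%.

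**Figure D2:**
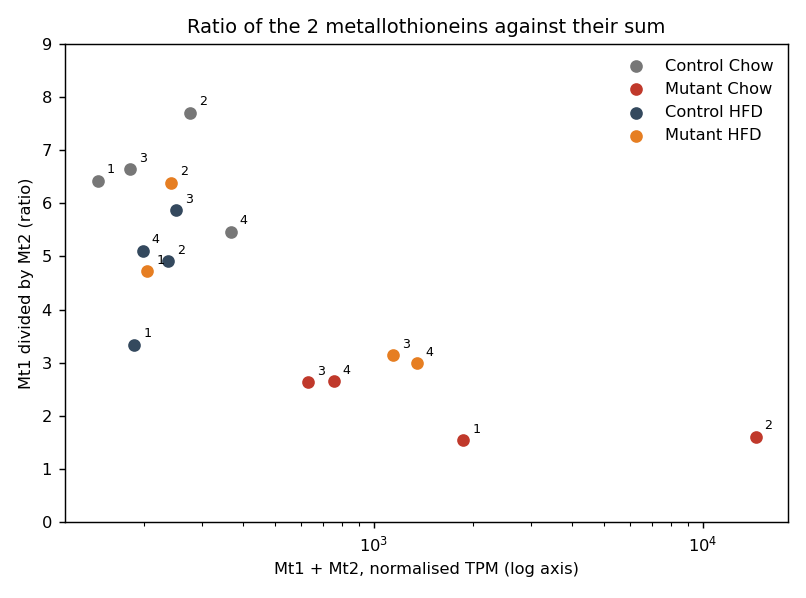
Level of Mt1 divided by that of Mt2 (vertical axis, ratio) against their sum (horizontal axis, normalised TPM, log axis), 1 point for each library with its replicate number. The 6 libraries with a sum of 630 or more, a cut drawn from these values, all have a ratio of 3.15 or less. The lowest of the other 10 is 3.34.

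Libraries of the same group spread more for the metallothioneins than for most genes. The residual SD on the log2 scale was 1.5 for Mt2 and 1.23 for Mt1, above 99.5% and 99.2% of genes tested, against a median of 0.260. It was 0.262 for Mtf1, 0.297 for Slc30a1, 0.316 for Slc39a14 and 0.411 for Slc30a10.

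Slc39a14, the importer of zinc, manganese and iron, was the most abundant zinc transporter of the SLC39 and SLC30 lists in all 4 groups. Its level in Control_Chow was 161, 117, 140 and 150 normalised TPM. Mutant_Chow libraries had 180, 330, 185 and 186. Control_HFD libraries had 99.1, 111, 115 and 123, and in Mutant_HFD 97.6, 162, 156 and 189. All chow mutants lay above all chow controls, and on HFD 3 of the 4 mutants lay above all controls while replicate 1 lay below them all. The HFD genotype difference was 0.39 with a standard error of 0.21, or 1.31-fold (limma adjusted p = 0.588; exact permutation p = 0.143, two-sided). With library weights this difference was 0.56 (limma adjusted p = 0.00747), and the range of the adjusted p over all alternatives was 0.00747 to 0.9996. The chow genotype difference was 0.58 with a standard error of 0.21, or 1.5-fold, and it was 0.37 without Mutant_Chow replicate 2. HFD libraries were lower than chow libraries by 0.34 in controls and by 0.53 in mutants, each with a standard error of 0.21. Leaving out Mutant_Chow replicate 2 gave -0.32 in mutants, and leaving out Mutant_HFD replicate 1 gave -0.33. In each genotype 3 of 4 HFD libraries lay below all chow libraries. These diet differences cannot be told apart from differences between title series, none of which spans both diets.

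Slc30a1, the zinc exporter of the plasma membrane and a known MTF1 target, was low. Its level in Control_Chow was 5.98, 4.56, 5.53 and 7.03 normalised TPM. In Mutant_Chow it was 6.18, 10.5, 8.60 and 8.27. In Control_HFD it was 4.85, 6.74, 6.25 and 8.43, and in Mutant_HFD 4.996, 9.51, 9.46 and 8.06. Mutants and controls overlapped on both diets, with 3 chow mutants and 2 HFD mutants above all controls of their diet. The HFD genotype difference was 0.24 with a standard error of 0.20, or 1.18-fold (limma adjusted p = 0.696; exact permutation p = 0.371, two-sided). Under library weights the difference was 0.42 (limma adjusted p = 0.0335), and with the title series as a term it was -0.06 (limma adjusted p = 0.9996). The chow genotype difference was 0.46 with a standard error of 0.20, or 1.38-fold.

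Slc30a10, the manganese exporter, was lower in every HFD mutant than in every chow mutant. Its level in Control_Chow was 15.4, 22.5, 12.3 and 7.15 normalised TPM. In Mutant_Chow it was 16.2, 19.4, 13.9 and 13.7. In Control_HFD it was 13.5, 8.48, 7.89 and 7.70, and in Mutant_HFD 10.6, 8.88, 6.82 and 6.17. This separation was present in 1.86% of all genes, whereas the diets overlapped in controls. The difference between diets in mutants was -0.89 with a standard error of 0.27, and in controls -0.49 with the same standard error. The HFD genotype difference was -0.18 ± 0.27 (standard error; limma adjusted p = 0.8275; exact permutation p = 0.486, two-sided), and with the title series as a term it was 0.02. The chow genotype difference was 0.22 with a standard error of 0.27. Since no title series spans both diets, the diet differences of Slc30a10 and those between series cannot be told apart.

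Mtf1, the metal-sensing factor, varied least. Its level in Control_Chow was 4.43, 6.49, 7.29 and 6.48 normalised TPM, and in Mutant_Chow 5.96, 6.11, 6.16 and 4.97. In Control_HFD it was 7.06, 4.40, 4.48 and 6.396, and in Mutant_HFD 4.67, 6.49, 8.67 and 6.99. The groups overlapped in every comparison. Mutant_Chow replicate 2, with the most metallothionein, had 6.11, and Mutant_HFD replicate 3, with the highest Mtf1, had an Mt1 and Mt2 sum of 1146. The HFD genotype difference was 0.22 ± 0.18 (standard error; limma adjusted p = 0.682; exact permutation p = 0.286, two-sided). It was 0.47 with library weights (limma adjusted p = 0.0314) and 0.02 with the title series as a term (limma adjusted p = 0.9996), which span the adjusted p of all alternatives. The chow genotype difference was -0.06 with a standard error of 0.18.

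Across the diets, the metallothioneins differed little in controls. The difference, HFD minus chow, was 0.31 for Mt2 with a standard error of 0.94 and -0.15 for Mt1 with a standard error of 0.77. In mutants it was -2.58 for Mt2 and -1.58 for Mt1, with the same standard errors, and 2 of the 4 HFD mutants lay below all chow mutants for each gene. Without Mutant_Chow replicate 2 these differences were -1.52 and -0.64, and with library weights -1.20 and -0.45. The genotype difference on HFD was smaller than that on chow by 2.89 for Mt2 (standard error 1.33) and by 1.44 for Mt1 (standard error 1.09). Coded as HFD minus chow, the values without Mutant_Chow replicate 2 were -1.83 for Mt2 and -0.50 for Mt1, and with library weights -1.57 and -0.41. These differences share the chow libraries that chose the genes. No title series spans both diets, so differences between diets cannot be told apart from those between series. The interaction likewise compares genotype differences from different series. Over all genes, 0% passed an adjusted p of 0.05 by limma for diet in controls, diet in mutants or the interaction, and 12.9%, 6.86% and 4.21%, respectively, passed at an unadjusted p of 0.05.

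**Figure D3:**
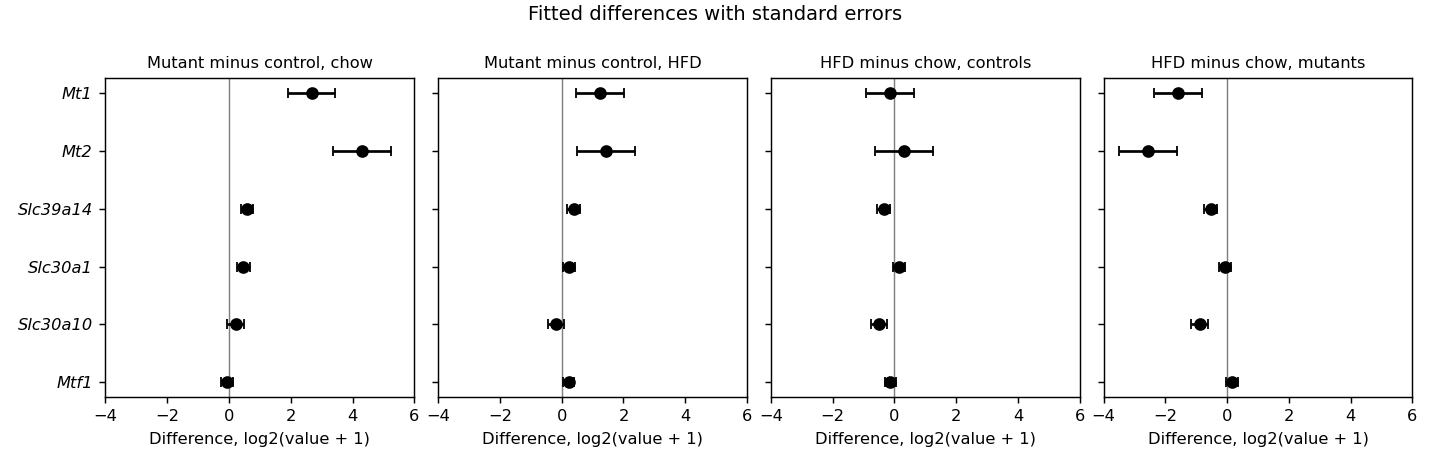
Fitted difference of each gene on the log2(value + 1) scale (horizontal axis) for genotype on each diet and diet in each genotype. Points are limma estimates and bars are 1 standard error, with 4 libraries a group. Mt2 differs by 4.31 on chow and 1.42 on HFD, whereas Mtf1 lies within 0.23 of 0 in all 4 panels.

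The other zinc transporters gave a smaller range of differences. The SLC39 list has 14 genes, of which 13 were in the table and tested, and the SLC30 list has 10, of which 8 were in the table and 7 tested. Without the members, these were 12 tested SLC39 genes and 5 tested SLC30 genes, of which none passed an adjusted p of 0.05 by limma in any of the 5 comparisons. At an unadjusted p of 0.05, 0 of the 12 SLC39 genes were higher and 2 were lower in chow mutants, and on HFD 0 were higher and 1 was lower. Of the 5 SLC30 genes, 0 passed on chow and 1 was higher on HFD. Over all genes, 6.08% passed this unadjusted p on chow and 8.6% on HFD. The median difference on HFD was -0.03 for the 12 SLC39 genes and -0.01 for the 5 SLC30 genes, beside 0.02 over all genes. On chow it was 0.07 and 0.04, beside 0.02 over all genes. The brain metallothionein Mt3 and the epithelial Mt4 were not analysed here.

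Among the importers, Slc39a4, the intestinal zinc importer of the plasma membrane, averaged 42.0 ± 2.79 normalised TPM in Control_Chow and 31.9 ± 8.70 in Mutant_Chow (SD, n = 4 each), with its lowest value, 20.4, in Mutant_Chow replicate 2. That is the library with the most Mt1, Mt2 and Slc39a14. On HFD it averaged 50.5 ± 4.58 in controls and 47.1 ± 5.31 in mutants. Slc39a2 averaged 2.29 in Control_Chow, 1.22 in Mutant_Chow, 2.23 in Control_HFD and 2.10 in Mutant_HFD, and was also lowest in Mutant_Chow replicate 2. Slc39a3 averaged 7.26 in Control_HFD and 5.53 in Mutant_HFD, a difference of -0.34 with a standard error of 0.15 that did not pass adjustment. Slc39a5 averaged 1.76 in Control_HFD and 3.24 in Mutant_HFD, a difference of 0.58 with a standard error of 0.31.

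Most of the remaining importers were moderately expressed. Slc39a1, Slc39a7, Slc39a9, Slc39a8, Slc39a13 and Slc39a11 averaged 46.8, 36.5, 21.5, 14.4, 15.9 and 12.4 normalised TPM in Control_Chow. Slc39a13 averaged 16.4 in Mutant_Chow, 11.6 in Control_HFD and 14.8 in Mutant_HFD. Slc39a10 averaged 2.10, 1.42, 1.34 and 1.28 in Control_Chow, Mutant_Chow, Control_HFD and Mutant_HFD, and Slc39a6 averaged 1.37, 1.47, 1.09 and 0.860 in the same order. Among the exporters, Slc30a9 averaged 43.0 ± 18.8 in Control_HFD and 56.2 ± 6.51 in Mutant_HFD, and Slc30a4 averaged 1.56 ± 0.497 and 2.22 ± 0.531 in the same groups. Slc30a5, Slc30a6 and Slc30a7, which load zinc into the secretory pathway, averaged 14.8, 10.03 and 5.15 in Control_Chow. Slc30a3 fell below the filter on low values.

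**Figure D4:**
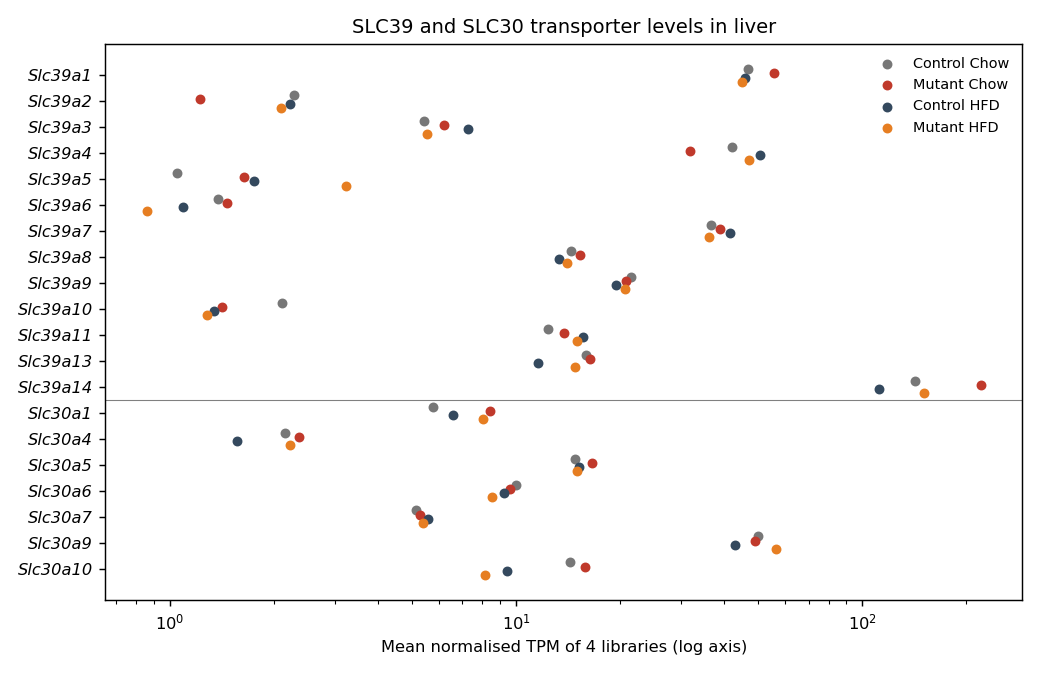
Mean level of each tested SLC39 gene (upper rows) and SLC30 gene (lower rows) in the 4 groups, in normalised TPM on a log axis, with 4 libraries behind each point. Slc39a14 is the highest in every group, from 112 in Control_HFD to 220 in Mutant_Chow.

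Of the signals known to act on the metallothioneins, the acute-phase response was high in 2 of the 4 chow mutants. The acute-phase list, plasma proteins made by the liver in inflammation, had 21 of 21 genes tested. Its mean log2 level was 9.20, 11.4, 7.74 and 7.97 in Mutant_Chow replicates 1 to 4 and between 7.73 and 7.996 in Control_Chow. In Control_HFD it was 9.45, 8.51, 8.15 and 7.75, and in Mutant_HFD 8.47, 7.50, 7.70 and 8.14. Mutant_Chow replicates 3 and 4 and Mutant_HFD replicates 3 and 4, all high in metallothionein, had list means inside the range of their diet's controls or below it. Control_HFD replicate 4, the control in the title series of these HFD mutants, had 7.75, between their 7.70 and 8.14. Control_HFD replicate 1, with the second-highest list mean, had an Mt1 and Mt2 sum of 187. The part of the acute-phase response in the metallothionein values was not tested. On chow 0 of 21 genes passed an adjusted p by limma, and the median difference was 1.03. At an unadjusted p of 0.05, 10 were higher, beside 6.08% of all genes that passed. On HFD the median was -0.21, with 1 gene lower at an unadjusted p of 0.05, which 8.6% of all genes passed. That gene, Orm3, averaged 77.3 in controls and 24.9 in mutants.

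Of the interleukin-6 and STAT3 list, 14 of 14 genes were tested and 0 passed an adjusted p by limma in any comparison. On HFD 2 genes were higher and 1 lower at an unadjusted p of 0.05, which 8.6% of all genes passed. The median difference was 0.17. The mean log2 level of the list was 4.003, 4.31, 4.44 and 4.43 in Mutant_HFD replicates 1 to 4 and between 4.09 and 4.22 in Control_HFD, so the 2 HFD mutants with high metallothionein lay above the controls, as did replicate 2, where it was low. In Mutant_Chow replicates 1 to 4 it was 4.79, 5.63, 4.31 and 4.44, and between 4.01 and 4.36 in Control_Chow. The part of this signal in the metallothionein values was not tested. Lifr, a receptor of the same cytokine family, averaged 49.7 ± 20.6 normalised TPM in Control_HFD and 256 ± 158 in Mutant_HFD (limma adjusted p = 0.527). Socs3, the feedback inhibitor of this pathway, averaged 11.2 ± 6.62 in Control_HFD and 3.85 ± 1.78 in Mutant_HFD (limma adjusted p = 0.560). The receptor chain Il6ra averaged 18.7 in Control_HFD and 26.7 in Mutant_HFD. On chow 4 genes of the list were higher at an unadjusted p of 0.05, which 6.08% of all genes passed, with a median of 0.53.

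Glucocorticoid-induced genes had a median difference of 0.08 on chow and -0.07 on HFD over 12 genes, with Fkbp5, a chaperone of the receptor, at 17.8 ± 2.79 in Control_HFD and 32.3 ± 14.4 in Mutant_HFD (limma adjusted p = 0.573). The NRF2 targets had medians of 0.05 and 0.14 over 11 tested genes, and Txnrd1, thioredoxin reductase, averaged 52.6 ± 3.82 in Control_HFD and 61.7 ± 5.56 in Mutant_HFD (limma adjusted p = 0.5635). Copper-handling genes had medians of -0.01 and 0.04 over 12 genes, and iron-handling genes 0.12 and 0.01 over 14. In the copper list, Steap3, a metalloreductase, was lower in HFD mutants at an unadjusted p of 0.05, with 19.0 ± 6.15 in Control_HFD and 13.5 ± 4.22 in Mutant_HFD (limma adjusted p = 0.577). Commd1, which takes part in copper export, averaged 51.7 ± 3.66 and 60.8 ± 5.48 in these groups. Ceruloplasmin (Cp), the copper-carrying ferroxidase, which is also in the acute-phase list, averaged 561 ± 127 and 880 ± 258 in them. On chow Cp averaged 522 in controls and 1447 in mutants, with its highest value in Mutant_Chow replicate 2. The iron exporter Slc40a1 averaged 113 in Control_HFD and 140 in Mutant_HFD. In the copper and iron lists, as in the glucocorticoid and NRF2 lists, 0 genes passed an adjusted p by limma in any comparison. At most 4 genes of such a list passed at an unadjusted p of 0.05. Over all genes, 4.21% to 12.9% passed that unadjusted p in the 5 comparisons.

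Neutrophil markers were highest in Mutant_Chow replicates 1 and 2. Of 10 listed genes, 9 were in the table and 8 passed the filter, and the summed level of the 9 was 2.56 to 11.5 normalised TPM in Control_Chow and 6.77 to 23.0 in Control_HFD. In Mutant_Chow it was 3115, 6704, 26.3 and 118, and in Mutant_HFD 12.5, 66.8, 54.1 and 156. Every library with an Mt1 and Mt2 sum of 630 or more lay above all control libraries in this level. Mutant_HFD replicate 2, at 66.8, did so as well, with low metallothionein. Mutant_Chow replicate 3, at 26.3, had an Mt1 and Mt2 sum of 630. All 8 tested genes were higher on chow at an unadjusted p of 0.05, which 6.08% of all genes passed, and 0 passed adjustment by limma. Most of the 8 averaged below 1 in both control groups and met the filter on low values only through mutant libraries. The filter itself thus favoured genes that were higher in mutants. On HFD all 8 were higher in mutants, with a median difference of 1.36. There 0 of them passed an unadjusted p of 0.05, beside 8.6% of all genes. Between 0 and 3 of the 9 markers were at 0 in a control library. In bulk liver, more cells of a type and more RNA per cell cannot be told apart, and the part of these cells and of the acute-phase signal in the metallothionein values was not tested.

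Markers of other cells differed less. Summed Kupffer cell and macrophage markers, 8 of 8 in the table, spanned 135 to 394 in Control_Chow, 214 to 574 in Mutant_Chow, 250 to 421 in Control_HFD and 222 to 333 in Mutant_HFD. The highest sums, 523 and 574, were those of Mutant_Chow replicates 1 and 2. On chow 8 of these 8 genes were higher in mutants, with a median difference of 0.60. Of them 1 passed an unadjusted p of 0.05, beside 6.08% of all genes, and 0 passed adjustment by limma. On HFD the median was -0.03 and 0 passed. Only 1 of 10 pancreas markers, Cpb1, was in the table, below the filter, and 2 of 5 adipocyte markers were. Stellate cell, endothelial, bile duct and red blood cell lists had 0 genes passing an unadjusted p of 0.05 in either genotype comparison, as did the hepatocyte list.

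**Figure D5:**
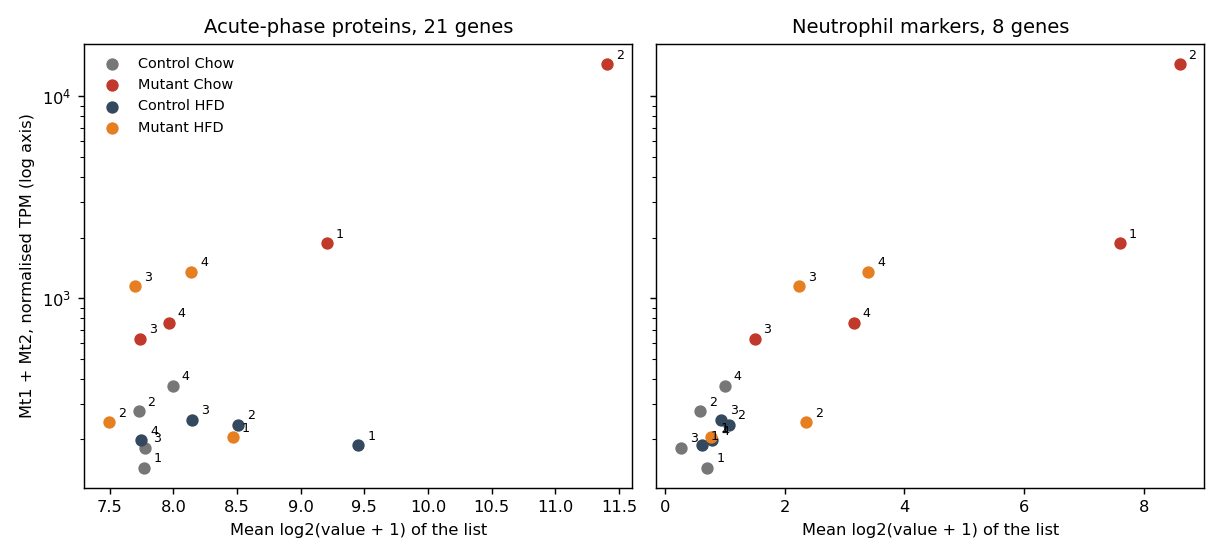
Sum of Mt1 and Mt2 (vertical axis, normalised TPM, log axis) against the mean log2(value + 1) of 21 acute-phase genes (left) and of 8 neutrophil markers (right), 1 point for each library with its replicate number. Mutant_Chow replicate 2 is highest on every axis, and Control_HFD replicate 1 has an acute-phase mean of 9.45 with a metallothionein sum of 187.

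The genes whose log2 levels were most like those of Mt2 over the 16 libraries, among 8720 genes with a mean level of at least 5, were Grn, Eid1, Cfi, Ltf and S100a9, with Pearson correlations of 0.934, 0.930, 0.917, 0.914 and 0.913. Grn encodes progranulin, Cfi complement factor I, and Ltf and S100a9 proteins of neutrophils. Without Mutant_Chow replicate 2 these were 0.867, 0.855, 0.837, 0.827 and 0.847. Grn averaged 118, 194, 124 and 149 normalised TPM in Control_Chow, Mutant_Chow, Control_HFD and Mutant_HFD, and Cfi averaged 409, 639, 409 and 493. Both were picked by their correlation with Mt2, so a likeness of their group means to those of Mt2 is no separate result. Their range was smaller, and Cfi hardly differed between the 2 control groups. S100a9 averaged 2.89, 1010, 9.13 and 30.2 in the same order. Ltf averaged 0.283, 75.54, 0.01268 and 1.997, so it reached the mean level of 5 only through Mutant_Chow. In that group Mt2 had been seen higher before the genes were chosen. The correlation of Ltf with Mt2 is therefore no separate result.

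After subtraction of the group means, the 5 genes most like Mt2 were Pdia5, Grn, Crp, Cd302 and Ung, with Pearson correlations of 0.891, 0.883, 0.871, 0.864 and 0.857. Pdia5 encodes a disulphide isomerase of the endoplasmic reticulum, Crp the acute-phase C-reactive protein and Ung a uracil-DNA glycosylase. Without Mutant_Chow replicate 2 the values were 0.770, 0.778, 0.776, 0.719 and 0.727. Grn was thus in both sets. Among the members, the Pearson correlation with Mt2 over 16 libraries was 0.817 for Slc39a14, 0.571 for Slc30a1, 0.218 for Slc30a10 and 0.231 for Mtf1, and without Mutant_Chow replicate 2 it was 0.643, 0.419, -0.08 and 0.297. Slc39a14 and Slc30a1 had a Pearson correlation of 0.710 with each other.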

How the data were processed

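Liver RNA of 16 mice was sequenced by the submitters (NEBNext Ultra II libraries, NovaSeq). Per the submitters' processing notes and the paper's methods, reads were quantified with kallisto and sleuth on mm10; versions are not given in the sources used here. The deposited gene values are read as a signal on the TPM scale, adjusted by the authors between libraries, from column sums of 905897 to 1119703. Depth is unknown, so no counting interval is given. Genes with a value of at least 1 in at least 4 libraries (12704 of 15544) were fitted as log2(value + 1) with limma 3.58.1 (R 4.3.3, trend, 4 group means) and adjusted by Benjamini-Hochberg. This test replaced the sleuth test, which needs transcript-level estimates not used here, and was tested on simulated data. Exact permutation tests of single genes were two-sided. The labels do not say that libraries of a group came from separate litters or batches, so p-values measure the spread between these libraries.

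The members and lists were chosen with earlier results of these data known. Named genes were the members, all measured SLC39, SLC30 and other metallothionein genes, at most 3 genes of each other pathway list with the smallest unadjusted p on HFD, and the 5 genes most like Mt2 in each of 2 rankings. Neutrophil S100a9 came from that ranking and Cpb1 was named because it was the single pancreas marker present. Alternatives were 2 scalings, a pseudocount of 0.1, no filter or a filter at 5, the title series as a term, library weights, fitting only the groups compared, and leaving out each library. Sequences came from RefSeq (GRCm38.p6; 5 of 6 members had a promoter) and GENCODE (GRCm38).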

Additional observations from a re-analysis of the deposited data

Results flagged for a closer look

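A total of 3 values stood apart from the other 3 libraries of their group by Dixon's criterion for 4 samples on the log2(value + 1) scale, which chance meets in about 1 in 20 groups. Slc39a14 in Mutant_Chow replicate 2 was 330.1 normalised TPM, with the next at 185.7. Slc30a10 in Control_HFD replicate 1 was 13.54, with the next at 8.476. Mtf1 in Mutant_Chow replicate 4 was 4.966, with the next at 5.957. Mt1 and Mt2 had no such value on this scale. On the linear scale their gaps in Mutant_Chow replicate 2 were 0.919 and 0.896 of the group range, which would also stand apart.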

How the results depend on the processing

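Of the 6 members, 0 passed in the HFD genotype comparison in the fit as reported, under both other scalings, the smaller pseudocount, both other filters, the title series term, the fit of the HFD groups alone and each fit without 1 library. With library weights 3 passed: Slc39a14 (0.56, limma adjusted p = 0.00747), Slc30a1 (0.42, limma adjusted p = 0.0335) and Mtf1 (0.47, limma adjusted p = 0.0314). In that fit 3926 of 12704 genes (30.9%) passed, against 2 in the fit as reported. With weights Mt1 was 1.54 (limma adjusted p = 0.0560) and Mt2 1.84 (limma adjusted p = 0.0776), and their adjusted p reached 0.9996 with the series term. Under that term the HFD difference of Slc30a1 reversed to -0.0602 and that of Slc30a10 to 0.01538. Weights were 0.228 for Control_HFD replicate 4 and 0.329 for Mutant_HFD replicate 1, the lowest of the HFD libraries. The cause was not tested. The interaction of Mtf1 moved to 0.59 with weights.

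Without 1 library at a time, the HFD difference ran from 0.82 to 1.67 for Mt1 and from 0.85 to 1.96 for Mt2, and the chow difference of Mt2 from 3.26 to 4.92. The number of members called stayed at 0 in each of these fits. Libraries could not be weighed by depth, and the fits share 1 spread over groups whose metallothionein values spread unequally. No paired analysis was possible because the labels give no replicate numbers and no pairing of mice.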
